A study of Mus musculus with 6 samples.

Results

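Ezh2 occupancy of gene promoters was compared between R1 mouse embryonic stem (ES) cells given Brca1 specific siRNA and R1 cells given control siRNA, a comparison of 2 of the 6 arrays in the study. Both R1 cultures were harvested 48 h after transfection, immunoprecipitated with the same Ezh2 antibody and hybridised against input DNA of the same cells on a promoter tiling array. The ChIP DNA carried Cy5 and the input Cy3 on every array, with no dye swap. The other 4 arrays are duplicates of the PL2F8 ES cell line, which is Brca1 deficient, and of the AB2.2 ES cell line, which has wild-type Brca1. Both of those lines carry the strain label 129/SvEvBrd-Hprtb-m2. The labels give no strain for R1, an ES cell line of the ATCC collection, and name no siRNA sequence. All cells of the study grew with the cytokine LIF on gelatin-coated dishes. The comparison asked whether short-term depletion of Brca1 changes where Ezh2 sits.

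Ezh2 is the catalytic subunit of Polycomb repressive complex 2, which methylates histone H3 at lysine 27 and keeps genes silent. In ES cells this complex is known to occupy promoters of developmental regulators, most of them rich in CpG dinucleotides. Brca1 is a tumour suppressor that acts in DNA repair by homologous recombination and carries ubiquitin ligase activity with Bard1. Neither Brca1 nor Ezh2 has a named promoter here, and a ChIP array does not measure the level of either, so the depletion of Brca1 could not be checked. The labelled cell type could not be checked either, since occupancy is not expression.

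Each R1 condition has 1 array, so its differences carry no test and no error of their own. The value of a promoter is the mean log2 ratio of ChIP over input over the probes of its array tile, after each array was centred on its probe median. There were 18545 tiles with at least 5 probes, with a median of 38 probes and 4000 bp. A tile was called different in R1 at a difference of at least 0.5 on the log2 scale, or 1.41-fold. The spread between the duplicates of the other lines is the only replicate spread to set beside that size. The labels do not say that those duplicates were separate cultures, as the R1 pair was, so it may be technical and too narrow for this use. The differences between the PL2F8 duplicates had an SD of 0.057 over tiles and no tile reached 0.5. Those between the AB2.2 duplicates had an SD of 0.093 and 8 tiles reached 0.5, all in the same direction. The R1 differences had an SD of 0.20 and 374 tiles reached 0.5, but whether a repeat of the R1 pair would return them cannot be said from 1 array each.

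The R1 arrays were alike over most promoters. Tile values with Brca1 siRNA correlated at r = 0.951 with those of the control, over 18545 tiles of arrays that share the probe set, against 0.997 between the PL2F8 duplicates and 0.988 between the AB2.2 duplicates. The median difference was -0.025, and differences ran from -1.09 to 1.08. With Brca1 siRNA 206 tiles (1.11%) were higher by at least 0.5 and 168 tiles (0.906%) were lower by at least 0.5. A difference of at least 1 upward was reached by 3 of these tiles and one of that size downward by 2. Within 0.05 of the threshold on the higher side lay 72 tiles inside it and 108 outside, and on the lower side 63 inside and 103 outside. The counts are therefore those of a continuous distribution with no gap at the threshold.

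**Figure D1:**
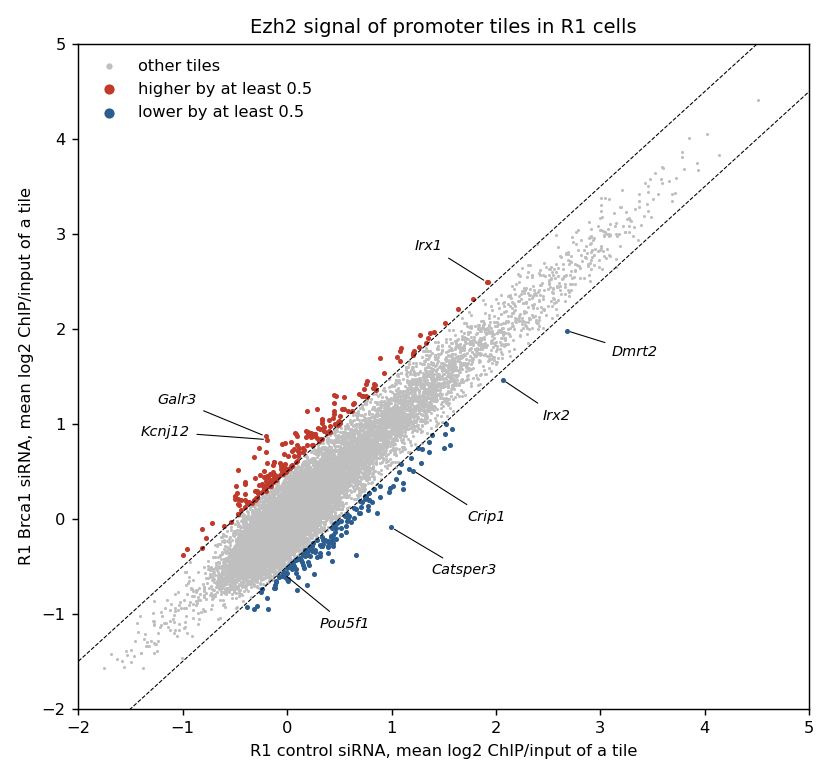
Each point is 1 of 18545 promoter tiles, with its mean log2 ChIP over input with Brca1 siRNA on the vertical axis and with control siRNA on the horizontal axis. Dashed lines mark a difference of 0.5 either way, red tiles (206) are higher and blue tiles (168) lower with Brca1 siRNA, and most lie at low or middle signal on either array.

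The promoters that differed lay at all levels of Ezh2 signal. Of the 1921 tiles with a mean of at least 1 over both R1 arrays, 31 (1.61%) were higher by 0.5, against 1.11% of all tiles, and 12 (0.625%) lower, against 0.906% of all tiles. Their median difference was 0.017. Of the 412 tiles with a mean of at least 2, 3 were higher and 1 was lower, with a median of -0.059. Split into 10 equal classes by the R1 mean, the higher tiles were most numerous in the class just below the top, with 53, against 28 in the top class and 2 to 12 in each of the lowest 5 classes. The lower tiles numbered 10 to 25 in each class, with the fewest in the top class. Among the 7314 tiles overlapping a peak that the authors listed for an R1 array, there were 168 higher (2.3%) and 109 lower ones (1.49%). Among the 11231 other tiles, 38 (0.338%) were higher and 59 (0.525%) lower. A tile counts as having a peak if either R1 array has one, so a changed tile may enter through the array on which it is high. Of the 206 higher tiles, 167 had a peak with Brca1 siRNA and 73 with control siRNA. Of the 168 lower tiles, 37 had one with Brca1 siRNA and 109 with control siRNA. The shares by peak are thus a description.

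At the higher tiles the Brca1 siRNA array stood apart, and at most of the lower tiles the control array did. The 206 higher tiles had a median of 0.69 with Brca1 siRNA and 0.037 with control siRNA, where the PL2F8 arrays had 0.12 and 0.089 and the AB2.2 arrays -0.11 and -0.14. At 203 of the 206 (98.5%) the Brca1 siRNA array lay above all 4 PL2F8 and AB2.2 arrays, against 27% of all tiles. The 168 lower tiles had a median of -0.28 with Brca1 siRNA and 0.35 with control siRNA, where the PL2F8 arrays had -0.017 and -0.018 and the AB2.2 arrays -0.16 and -0.17. At 143 of the 168 (85.1%) the control array lay above all 4 other arrays, against 26.4% of all tiles, and at 101 (60.1%) the Brca1 siRNA array lay below all 4, against 36.6% of all tiles. Since the tiles were chosen by the R1 difference, these positions are a description.

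Gene names come from the authors' peak lists, which pair a peak with the nearest transcription start, so a gene goes by name here if any of the 6 arrays had a peak assigned to it. This named 9613 genes in 9054 tiles. In counts over genes and lists, a gene with several tiles is given by the tile with the highest mean over the 6 arrays. At a difference of 0.5, 173 named genes (1.8%) were higher and 123 (1.28%) lower, and the median over all of them was 0.0072. The 14 highest and 14 lowest differences among named tiles with an R1 peak and at least 10 probes are described next. Coordinates are those of the files, and no source used here gives their genome build.

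Galr3, which encodes a receptor for the neuropeptide galanin, had the highest difference (chromosome 15, 78869114 to 78873114). Its tile had 0.87 with Brca1 siRNA and -0.21 with control siRNA, a difference of 1.08, with 0.58 and 0.54 in PL2F8 and -0.11 and -0.28 in AB2.2. The gain was spread along the tile, with 95% of its 40 probes higher with Brca1 siRNA. At -700, -575 and -475 bp from the start, probes read 3.63, 3.93 and 2.70 with Brca1 siRNA, against 0.69, 1.45 and 1.29 with control siRNA. At 25, 125 and 225 bp after the start they read 2.60, 2.67 and 2.52 with Brca1 siRNA, against -1.12, -0.50 and 0.20. The tile thus held a pair of stretches with a high ratio on the Brca1 siRNA array, and the control array had a lower peak at the upstream one.

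Kcnj12, the gene of an inwardly rectifying potassium channel, came next (chromosome 11, 60876105 to 60880105). Its tile had 0.83 with Brca1 siRNA and -0.19 with control siRNA, while PL2F8 had -0.29 on each array and AB2.2 had -0.01 and 0.13. The Brca1 siRNA array alone lay clearly above 0 here. Sigirr, which encodes an inhibitory member of the interleukin-1 receptor family, had 0.75 with Brca1 siRNA and -0.27 with control siRNA, a difference of 1.02, with PL2F8 at -0.44 and -0.46 and AB2.2 at -0.53 and -0.57. Btnl7, a butyrophilin-like gene, had 0.52 with Brca1 siRNA and -0.47 with control siRNA. Upk2, which encodes a uroplakin of the bladder lining, had 1.14 with Brca1 siRNA and 0.19 with control siRNA. Gpr97, the gene of an adhesion G protein-coupled receptor, had 0.71 with Brca1 siRNA and -0.21 with control siRNA. None of these genes belongs to the developmental lists described further on.

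The remaining 8 of the 14 differed by 0.81 to 0.87. Lpcat2, a phospholipid acyltransferase gene, had 1.15 with Brca1 siRNA and 0.28 with control siRNA, and Arhgap27, a GTPase activating protein gene, had 1.30 and 0.45 in the same order. Slc41a3, of a magnesium transporter family, had 0.79 with Brca1 siRNA and -0.053 with control siRNA on this tile, and 0.52 and 0.18 in the same order on another tile with more signal. Grap2, an adaptor gene of T cell receptor signalling, had 0.90 with Brca1 siRNA and 0.072 with control siRNA. Klk4, the gene of a protease of tooth enamel, had 1.29 with Brca1 siRNA and 0.46 with control siRNA. Olfr1410, an olfactory receptor gene, had 0.80 with Brca1 siRNA and -0.022 with control siRNA. Dcpp2 (0.34 and -0.49) and Gm9992 (0.89 and 0.080) complete the set, but 77.8% and 100% of their probes carry a count above 1 in the probe names, a field that the files do not explain.

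Catsper3, which encodes a subunit of the sperm calcium channel, had the lowest difference (chromosome 13, 55882739 to 55886739). Its tile of 16 probes had -0.091 with Brca1 siRNA and 1.00 with control siRNA, a difference of -1.09, with PL2F8 at -0.35 on each array and AB2.2 at 0.039 and 0.025. The fall was uneven, with 37.5% of its probes higher with Brca1 siRNA, the largest such share among the 14 lowest, and an SD of 1.60 between probe differences. The tile shared by Adat3, a subunit gene of a tRNA deaminase, and Scamp4, a secretory carrier membrane protein gene, followed (chromosome 10, 80062424 to 80066426). It had -0.38 with Brca1 siRNA and 0.66 with control siRNA, a difference of -1.04, with PL2F8 at -0.23 and -0.21 and AB2.2 at -0.48 and -0.56. In both tiles the control siRNA array was the highest of the 6.

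Elmo2, a gene of cell engulfment and migration, had -0.44 with Brca1 siRNA and 0.43 with control siRNA. Timm13, the gene of a chaperone for mitochondrial protein import, had -0.75 with Brca1 siRNA and 0.093 with control siRNA. Fam92b had 0.059 with Brca1 siRNA and 0.86 with control siRNA, and Mbd1, which encodes a methyl-CpG binding protein, had 0.31 and 1.11 in the same order over 15 probes. Slc2a3, the gene of the glucose transporter GLUT3, had -0.36 with Brca1 siRNA and 0.39 with control siRNA. Olfr632 had -0.29 with Brca1 siRNA and 0.44 with control siRNA, and the tile shared by Atpif1, an inhibitor gene of the mitochondrial ATP synthase, and Dnajc8 had -0.61 and 0.10. At these tiles and the Adat3 and Scamp4 tile the signal lay near or below the array median in the Brca1 siRNA cells, apart from Mbd1.

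The other 5 of the 14 lowest had more signal on either array. Kcnj2, the gene of another inwardly rectifying potassium channel, had 0.78 with Brca1 siRNA and 1.56 with control siRNA, with PL2F8 at 1.18 and 1.19 and AB2.2 at 1.19 and 1.00. It and Kcnj12, which encode channels of the same subfamily, thus lay at opposite ends of the 66 potassium channel genes measured. Nhs, the X-linked gene of Nance-Horan syndrome in humans, had 0.75 with Brca1 siRNA and 1.51 with control siRNA, and Sphkap, which encodes an anchoring protein of protein kinase A, had 0.38 and 1.11. Crip1, the gene of a small LIM domain protein, had 0.51 with Brca1 siRNA and 1.21 with control siRNA.

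Dmrt2, which encodes a transcription factor of somite patterning, was the strongest Ezh2 target in the set (chromosome 19, 25743700 to 25747700). Its tile had 1.98 with Brca1 siRNA and 2.68 with control siRNA, with 2.08 and 1.99 in PL2F8 and 1.91 and 1.78 in AB2.2. The difference was not even along the tile. At -2675, -2575 and -2490 bp from the start, probes read 2.01, 2.69 and 2.53 with Brca1 siRNA, against 4.41, 4.02 and 3.99 with control siRNA. At -581, -491 and -386 bp they read 2.64, 2.64 and 3.01 with Brca1 siRNA, against 4.16, 4.03 and 5.05. At 314 and 424 bp after the start the arrays were close, with 4.09 and 4.51 with Brca1 siRNA and 4.26 and 4.53 with control siRNA.

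**Figure D2:**
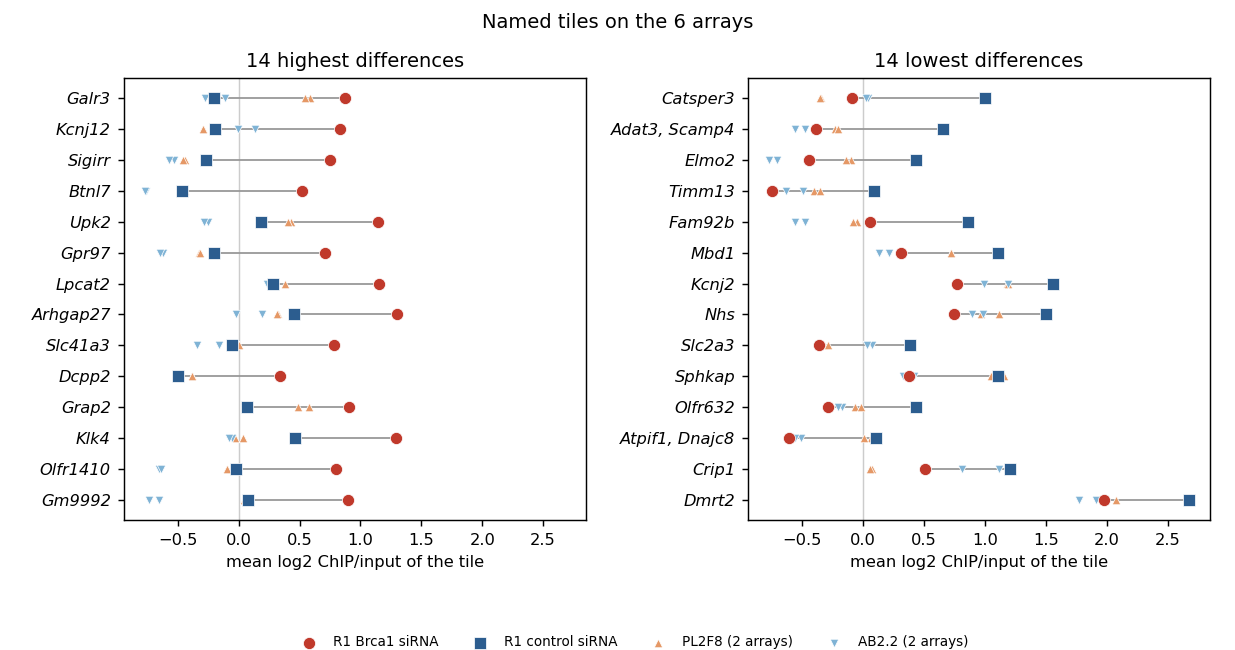
Mean log2 ChIP over input of the tile (horizontal axis) at the 14 named tiles with the highest (left) and the 14 with the lowest (right) R1 difference. Red circles are R1 Brca1 siRNA, blue squares R1 control siRNA joined to it by a line, and triangles the duplicate arrays of PL2F8 and AB2.2. On the left every red circle lies right of the other arrays, and on the right the blue square lies right of the 4 PL2F8 and AB2.2 arrays at 13 of 14 tiles.

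All 14 of the highest tiles overlapped a listed peak on the Brca1 siRNA array and 4 of them one on the control array. All 14 of the lowest overlapped a listed peak on the control array and 4 of them one on the Brca1 siRNA array. Not all of these peaks were strong calls. Among the highest tiles the false discovery rate with Brca1 siRNA ran from 0.0029 at Arhgap27 to 0.12 at Kcnj12. Among the lowest, the rate with control siRNA ran from 0 at Dmrt2, Nhs and Olfr632 to 0.198, the loosest listed, at Catsper3 and Fam92b. Since the tiles were chosen by their difference among tiles with an R1 peak, this pattern follows in part from the choice. Over a running mean of 5 probes, the highest stretch at Sigirr reached 2.69 with Brca1 siRNA and 0.48 with control siRNA, and at Arhgap27 3.35 and 2.05. At Olfr632 it reached 0.51 with Brca1 siRNA and 4.72 with control siRNA, and at Elmo2 0.34 and 2.55. The control ratio at Olfr632 was thus a narrow stretch of strong signal within a tile whose mean was 0.44.

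Promoter sequences show the CG content near the start of these genes, since Ezh2 in ES cells is known for CpG-rich promoters. Each is 300 bases long, against a median of 4000 bp for a tile, so it need not hold the probes that differed. The promoters below run from 250 bases before to 50 after the start and are those of the highest 3 and lowest 3 named tiles that have a single RefSeq promoter (RefSeq on GRCm38.p6, matched by symbol or synonym, 5′ to 3′ on the gene's strand). Capitals mark every CG, which reads the same on both strands. They lie at chr11:61065554-61065853 (Kcnj12, plus strand), chr8:95017442-95017741 (Gpr97, plus), chr8:92855083-92855382 (Lpcat2, plus), chr13:55784329-55784628 (Catsper3, plus), chr10:80602630-80602929 (Adat3, plus) and chr10:80900920-80901219 (Timm13, minus) in that build, which differs from the coordinates of the array files.
Kcnj12: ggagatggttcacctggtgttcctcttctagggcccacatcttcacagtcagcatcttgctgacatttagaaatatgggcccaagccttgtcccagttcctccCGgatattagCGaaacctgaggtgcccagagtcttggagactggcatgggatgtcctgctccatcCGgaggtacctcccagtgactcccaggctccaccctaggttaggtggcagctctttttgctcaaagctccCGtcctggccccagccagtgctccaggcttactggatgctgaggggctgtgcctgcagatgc
Gpr97: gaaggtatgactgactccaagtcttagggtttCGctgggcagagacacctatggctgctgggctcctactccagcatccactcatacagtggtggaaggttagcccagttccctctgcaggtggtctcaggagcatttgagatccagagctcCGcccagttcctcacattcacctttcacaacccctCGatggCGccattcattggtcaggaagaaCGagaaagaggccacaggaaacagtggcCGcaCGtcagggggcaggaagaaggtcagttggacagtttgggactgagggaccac
Lpcat2: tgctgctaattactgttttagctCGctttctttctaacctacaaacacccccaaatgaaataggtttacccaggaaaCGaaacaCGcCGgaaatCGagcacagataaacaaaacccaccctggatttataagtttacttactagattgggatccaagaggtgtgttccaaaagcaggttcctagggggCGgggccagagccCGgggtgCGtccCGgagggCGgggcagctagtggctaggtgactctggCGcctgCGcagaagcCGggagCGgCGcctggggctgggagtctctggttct
Catsper3: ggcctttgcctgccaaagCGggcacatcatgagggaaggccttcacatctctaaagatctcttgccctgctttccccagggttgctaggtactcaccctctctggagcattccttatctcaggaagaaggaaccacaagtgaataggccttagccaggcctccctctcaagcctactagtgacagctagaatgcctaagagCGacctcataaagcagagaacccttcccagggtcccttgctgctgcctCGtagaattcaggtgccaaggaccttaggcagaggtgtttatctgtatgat
Adat3: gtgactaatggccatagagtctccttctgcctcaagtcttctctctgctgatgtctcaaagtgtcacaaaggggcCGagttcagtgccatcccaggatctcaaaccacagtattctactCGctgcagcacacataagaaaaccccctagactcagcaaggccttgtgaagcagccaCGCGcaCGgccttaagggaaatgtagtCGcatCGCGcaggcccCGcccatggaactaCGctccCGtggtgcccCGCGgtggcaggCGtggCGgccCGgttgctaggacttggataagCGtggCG
Timm13: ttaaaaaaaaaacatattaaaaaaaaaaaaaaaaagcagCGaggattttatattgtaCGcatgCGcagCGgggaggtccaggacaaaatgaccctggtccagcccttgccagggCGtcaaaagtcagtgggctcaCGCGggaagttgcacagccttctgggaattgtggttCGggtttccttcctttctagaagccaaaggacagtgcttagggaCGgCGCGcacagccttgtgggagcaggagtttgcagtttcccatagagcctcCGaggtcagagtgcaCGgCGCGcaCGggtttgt

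Kcnj12 holds 4 CG, Gpr97 7 and Lpcat2 15, while Catsper3 holds 3, Adat3 18 and Timm13 16. A single promoter could be matched for 5929 of the 9613 named genes (61.7%). Their median was 19 CG, against 7 in all 32851 promoters of the table. The array files name genes only beside peaks, and only genes with a single matched promoter were counted. Which of these accounts for the gap was not tested. The 108 genes higher with Brca1 siRNA had a median of 7 CG and the 86 lower ones a median of 15. Among the 762 genes with 0 to 4 CG, a class that holds 38% of all promoters of the table, 37 (4.86%) were higher and 15 (1.97%) lower. Among the 2846 genes with 20 or more CG, a class with 26.5% of all promoters, 35 (1.23%) were higher and 23 (0.808%) lower. With 10 to 19 CG, 16 of 1491 (1.07%) were higher and 35 (2.35%) lower. The genes with 0 to 4 CG had less signal, with medians of 0.20 with Brca1 siRNA and 0.15 with control siRNA, against 0.39 and 0.36 at 20 or more CG. Over all 5929 genes the R1 difference had r = -0.012 and rho = -0.016 with the CG count. A gene is named only where an array had a peak, so a promoter of low signal enters these classes partly through the array on which it is high, and the shares by CG count are a description.

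Around the transcription start the higher and the lower genes differed in shape. Since both sets were chosen by the R1 difference, the sign and size of their gaps follow largely from the choice. The place of the gaps is a description. In bins of 250 bp from -3250 to 1000 bp, the mean of the 173 higher genes was above the control in each bin, by 0.44 to 0.74, and the largest gap lay between -1750 and -1500 bp, with 0.78 with Brca1 siRNA and 0.041 with control siRNA. Far upstream the control array and the PL2F8 arrays were near 0 in these genes. The mean of the 123 lower genes differed most between -500 and -250 bp, with -0.031 with Brca1 siRNA and 1.04 with control siRNA. There PL2F8 had 0.28 and 0.26 and AB2.2 had 0.21 and 0.15. Between -2000 and -1750 bp the gap in these genes was -0.38. Over all 9613 named genes the difference also had its lowest value between -500 and -250 bp, at -0.10, against 0.053 between -1750 and -1500 bp, so the named genes as a whole show a small dip at the same place.

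**Figure D3:**
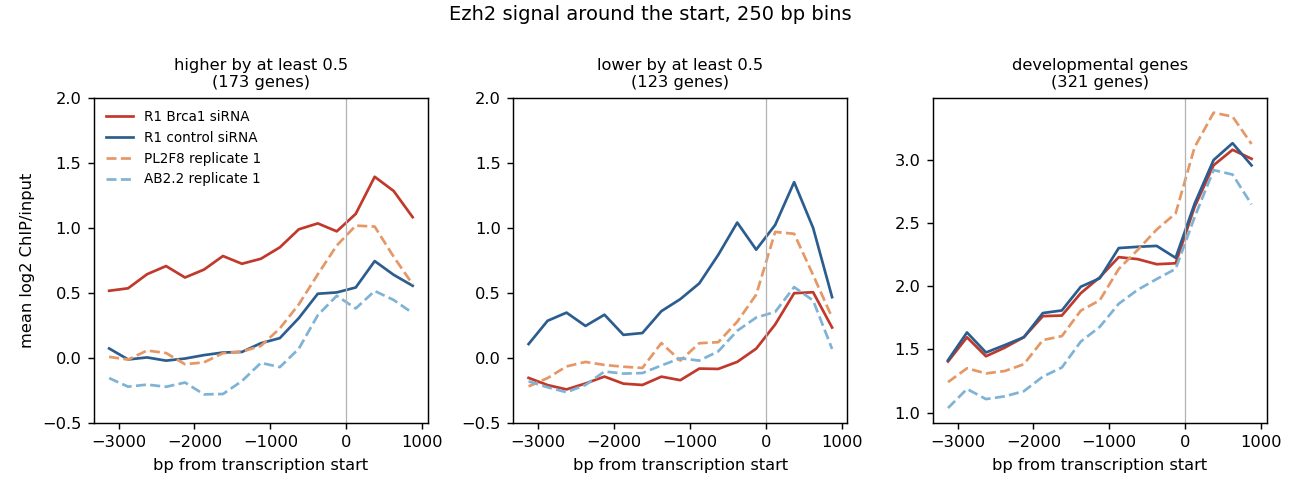
Mean log2 ChIP over input of probes in 250 bp bins (vertical axis) against the distance in bp from the transcription start (horizontal axis) for 173 higher, 123 lower and 321 developmental genes, on the R1 arrays (solid) and on replicate 1 of PL2F8 and AB2.2 (dashed). The first and second panels share a vertical scale, the third has its own. Brca1 siRNA lies above control siRNA throughout the first panel and below it throughout the second, and the R1 lines nearly coincide in the third. Genes of the first and second panels were chosen by the R1 difference, so the order of their R1 lines follows from the choice.

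Developmental regulators, the classical Polycomb targets, carried strong signal on both R1 arrays, and their median difference was close to 0. The 321 genes of 5 lists (Hox, other homeobox with Pax and LIM, neural, mesoderm and endoderm, and signalling genes) had a mean of 2.05 with Brca1 siRNA and 2.09 with control siRNA. Of these, 3 were higher and 2 lower by at least 0.5, below the shares of all named genes, and 135 (42.1%) lay above 0, against 51.4% of all named genes. Their median difference was -0.040, and single genes ran from -0.61 to 0.58, with an SD of 0.20, as wide as over all tiles. The sign of so small a median depends on scaling: the median of the 110 homeobox, Pax and LIM genes was -0.034, it was 0.016 when arrays were centred on tiles without a listed peak, and -0.16 when they were scaled to the same median absolute deviation.

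Irx1 and Irx2, homeobox genes of neighbouring position on chromosome 13, stood at opposite ends of that list. The Irx1 tile had 2.49 with Brca1 siRNA and 1.91 with control siRNA, with 2.07 and 1.89 in PL2F8 and 1.54 and 1.31 in AB2.2. The Irx2 tile had 1.46 with Brca1 siRNA and 2.07 with control siRNA, with 2.29 and 2.06 in PL2F8 and 2.11 and 1.90 in AB2.2. So Irx1 was highest of the 6 arrays and Irx2 lowest of the 6 in the Brca1 siRNA cells. Gbx2, of the midbrain and hindbrain boundary, had a difference of 0.39, and Meis1, a Hox cofactor gene, one of -0.45.

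Among mesoderm and endoderm genes, Msgn1, a factor gene of presomitic mesoderm, had 1.08 with Brca1 siRNA and 0.51 with control siRNA, and Sox18, of blood and lymph vessels, had 2.50 and 1.93. Sox17, of definitive endoderm, had 2.89 with Brca1 siRNA and 2.39 with control siRNA, a difference of 0.50 that fell just short of the threshold. Gata3 and Tbx18 were lowest in that list, at -0.38 and -0.35. Of the neural genes, Neurod6, a basic helix-loop-helix factor gene, had 0.028 with Brca1 siRNA and 0.59 with control siRNA and was the only one past the threshold, while Neurod1 had a difference of -0.39, Insm2 one of 0.35 and Neurod2 one of 0.28. None of 72 signalling genes passed 0.5, from Wnt3a at -0.46 and Wnt7b at -0.35 to Sfrp4, a Wnt antagonist gene, at 0.34 and Bmp7 at 0.40. For Msgn1 the sign depended on how a tile was summarised, since the highest running mean of 5 probes gave -0.18.

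None of the 39 Hox genes, the regulators of position along the body axis, differed by 0.5, where 1.8% and 1.28% of all named genes did. Their mean was 2.42 with Brca1 siRNA and 2.49 with control siRNA, with 11 genes above 0 and 28 below. The median difference of -0.079 was smaller than the medians between duplicates at the same genes, which were -0.097 for PL2F8 and -0.13 for AB2.2. That order depends on scaling, since arrays scaled to the same median absolute deviation gave a Hox median of -0.21 in R1. Hoxb9 was highest, with 2.67 with Brca1 siRNA and 2.33 with control siRNA, and Hoxb8 followed at a difference of 0.18. Hoxd4, with 0.68 with Brca1 siRNA and 1.05 with control siRNA, and Hoxc10, with 2.56 and 2.89 in the same order, lay at the low end, at -0.37 and -0.33. At Hoxd11, which had the most signal of the Hox genes, the tile had 3.68 with Brca1 siRNA and 3.94 with control siRNA.

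The 21 pluripotency genes measured are mostly, but not all, genes that ES cells express. Of these, 2 were lower by at least 0.5 and none higher, where 1.28% of all named genes were lower and 1.8% higher. Their median signal was 0.31 with Brca1 siRNA and 0.35 with control siRNA, close to the 0.38 and 0.36 of all named genes, and 16 of them had a listed peak on the Brca1 siRNA array and 14 on the control array. Pou5f1, the gene of the core factor Oct4, had -0.58 with Brca1 siRNA and -0.031 with control siRNA (chromosome 17, 35639783 to 35643783). PL2F8 had -0.56 and -0.58 there and AB2.2 had 0.034 and -0.046, so the Brca1 siRNA array lay close to the PL2F8 arrays and the control array within the range of AB2.2. No R1 array had a listed peak at Pou5f1, and all values lay near or below the array median, so the tile was not among the bound ones in either R1 culture. Prdm1, of germ cell specification, had 0.31 with Brca1 siRNA and 0.83 with control siRNA, where PL2F8 had 0.67 on each array and AB2.2 had 0.94 and 0.95.

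Esrrb, a nuclear receptor gene of naive pluripotency, was the pluripotency gene with the highest difference, with 2.55 with Brca1 siRNA and 2.30 with control siRNA, and it carried strong Ezh2 signal on both arrays. Nanog had 0.14 with Brca1 siRNA and -0.088 with control siRNA. Sox2 had 0.53 on each array. Tcl1, at -0.44, and Stat3, at -0.27, were next to Prdm1 at the low end. The list had a median of -0.089, with 7 genes above 0 and 14 below, and it stayed below 0 under the 5 other settings tried. Slc2a3, Nanog and the forkhead gene Foxj2 lie close together on chromosome 6 (tiles from 122691737, 122654385 and 122767328), and their differences were -0.75, 0.23 and 0.61.

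**Figure D4:**
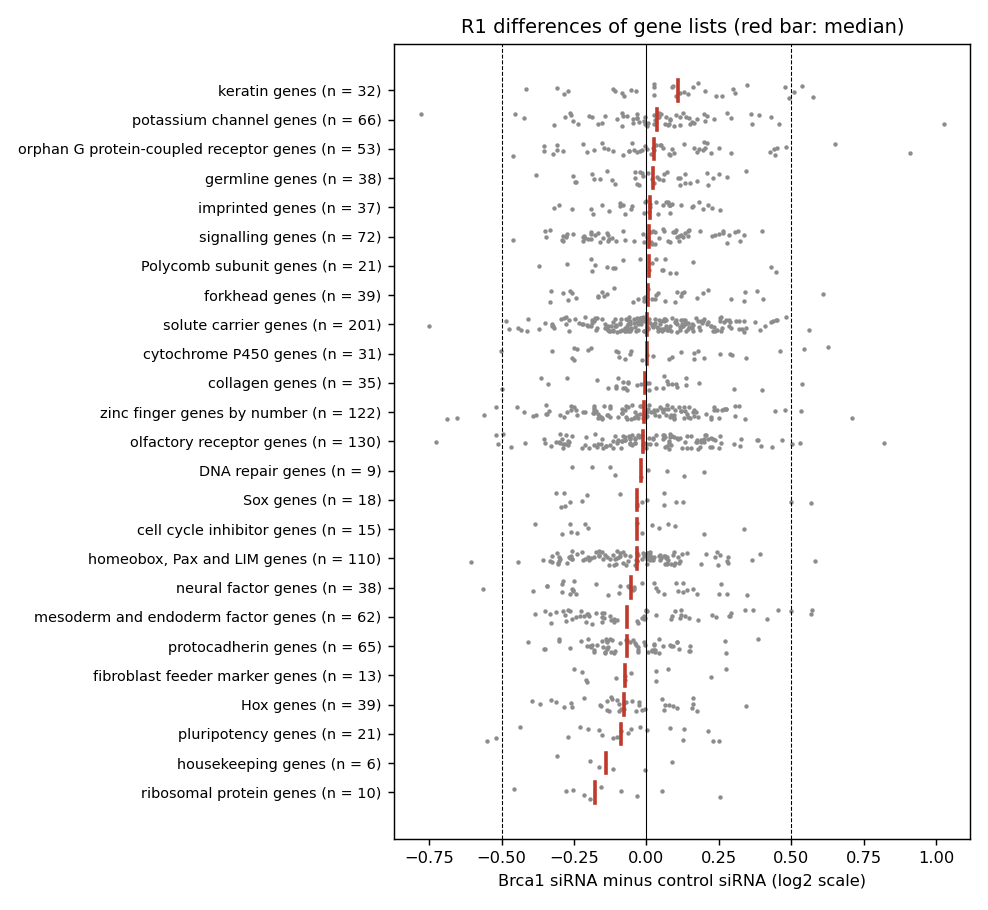
Brca1 siRNA minus control siRNA on the log2 scale (horizontal axis) for the measured genes of 25 lists (rows, n in brackets), a grey point per gene and a red bar at the median. Dashed lines mark 0.5 either way. Keratin genes have the highest median (0.11) and ribosomal protein genes the lowest (-0.18), and few genes of any list pass a dashed line.

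Keratin genes, which encode the filaments of epithelia and hair, had the highest median of the 25 lists. Of 32 measured, 22 lay above 0, where 51.4% of all named genes did, the median was 0.11, and 3 were higher and none lower by at least 0.5, against 1.8% and 1.28% of all named genes. Krt84 had 0.46 with Brca1 siRNA and -0.12 with control siRNA, and Krt83, like it a hair keratin gene of chromosome 15, had 1.29 and 0.75. The third was Krt35 on chromosome 11, named for this count after its value was seen, with 0.53 with Brca1 siRNA and 0.025 with control siRNA. Krt17 and Krt7 were lowest, at -0.42 and -0.31. Many keratin genes lie side by side in a pair of clusters, so they are not independent of each other. A keratin gene is measured only where an array had a peak, and 23 had one with Brca1 siRNA and 17 with control siRNA. One of low signal may thus enter the list through the array on which it is high.

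Ribosomal protein genes had the lowest median, -0.18 over 10 measured of 76 listed, and housekeeping genes had -0.14 over 6 measured of 24. These lists hold only members that the authors listed beside a peak, and taking the highest running mean of 5 probes as the tile value put their medians at 0.12 and -0.39. Rplp0 had -0.33 with Brca1 siRNA and 0.12 with control siRNA, and Rpl7 had 0.63 and 0.38. None of the 21 Polycomb subunit genes passed 0.5, with Pcgf2 at 0.45 and Cbx2 at 0.43 on the high side and Cbx6 at -0.37 and Eed at -0.27 on the low side. None of the 9 DNA repair genes did, from Wrn at 0.20 and Atr at 0.13 to Ercc1 at -0.26 and Xrcc1 at -0.19. None of 15 cell cycle inhibitor genes did either, with Rassf1 at 0.34 and Rb1 at 0.20 against Gadd45b at -0.38 and Cdkn1a, the gene of p21, at -0.29. The medians of these 3 lists were 0.010, -0.017 and -0.034.

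Imprinted genes (37, median 0.013, from Inpp5f at -0.32 to Zim1 at 0.25), germline genes (38, 0.022, from Bmp15 at -0.38 to Tdrd7 at 0.34) and fibroblast feeder markers (13, -0.073, from Pdgfra at -0.25 to Tagln at 0.28) had no member past 0.5. The larger families held a few members past it in either direction, to be read against 1.8% of all named genes higher and 1.28% lower, and with so few members no family is set apart from those shares. Of 130 olfactory receptor genes 3 were higher and 3 lower (median -0.013), with Olfr76 at 0.53 and Olfr1361 at -0.52 beside the members above. Of 122 zinc finger genes named by number 2 were higher and 4 lower (-0.0077), led by Zfp488 at 0.71 and closed by Zfp369 at -0.69 and Zfp708 at -0.65. Of 201 solute carrier genes 1 was higher, Slc1a4 at 0.56, and 1 lower, Slc2a3 (0.0015). Slc41a3 was counted by its tile with the higher mean over all arrays of the study, at 0.34, and not by the one among the 14 highest. Of 66 potassium channel genes 1 was higher and 1 lower, both named above (0.035).

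Of 39 forkhead genes 1 was higher, Foxj2, and none lower (0.0059), with Foxa2 and Foxq1 lowest at -0.33 each. Of 18 Sox genes 1 was higher, Sox18, and none lower (-0.032), with Sox4 lowest at -0.31. Of 35 collagen genes 1 was higher, Col11a2 at 0.54 (-0.0046), and Col12a1 lay at the edge of the threshold with 2.65 with Brca1 siRNA and 3.15 with control siRNA. Of 31 cytochrome P450 genes 2 were higher, Cyp4f14 at 0.63 and Cyp2a12 at 0.54, and 1 lower, Cyp2d22 at -0.50 (0.00092). Of 53 orphan G protein-coupled receptor genes 2 were higher, Gpr97 and Gpr160 at 0.65, and none lower (0.027). None of 65 protocadherin genes passed 0.5 (-0.067), with Pcdh8 at -0.41 and Pcdhb7 at 0.38 at the ends.

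Tiles of the X chromosome leaned lower with Brca1 siRNA. Of its 760 tiles 1 (0.132%) was higher and 14 (1.84%) were lower by at least 0.5, against 1.11% and 0.906% of all tiles. Some autosomes leaned the same way, with 1 of 461 tiles higher (0.217%) and 6 lower (1.3%) on chromosome 18, and 4 of 682 higher (0.587%) and 9 lower (1.32%) on chromosome 13. The median difference of the X chromosome, -0.071, was the lowest of any chromosome, with medians of 0.032 with Brca1 siRNA and 0.12 with control siRNA. Autosomal medians ran from -0.045 to 0.017. Nhs, Bmp15, Kcne1l and Pcdh11x, each among the lowest of a list or of the named set, lie on X. Chromosome 17 had the highest share of higher tiles, 19 of 876 (2.17%).

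The authors listed 6432 peaks on the Brca1 siRNA array and 6257 on the control array, called per array at a false discovery rate of at most 0.198. Of the Brca1 siRNA peaks 4441 (69%) overlapped a control peak by at least 1 bp, and 4440 (71%) of the control peaks overlapped a Brca1 siRNA peak. The 1991 peaks without a partner on the control array were weaker calls, with a median false discovery rate of 0.0788 against 0.0129 for the shared ones. Inside them the median signal was 1.84 with Brca1 siRNA and 0.86 with control siRNA. The 1817 control peaks without a partner had 0.93 with Brca1 siRNA and 1.76 with control siRNA. The control array was thus not empty under the Brca1 siRNA peaks, nor the Brca1 siRNA array under the control peaks. Over the Brca1 siRNA peaks that overlapped a control peak the medians were 2.39 with Brca1 siRNA and 2.31 with control siRNA. Over the control peaks that overlapped a Brca1 siRNA peak they were 2.30 with Brca1 siRNA and 2.42 with control siRNA, so the order at shared peaks followed the array that defined the peak.

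The PL2F8 and AB2.2 lines give a second loss of Brca1 that shares no array with the R1 pair. In PL2F8 8971 tiles (48.4%) were higher and 3757 (20.3%) lower than in AB2.2 (limma, Benjamini-Hochberg adjusted p under 0.05 over 18545 tiles). The labels do not say that duplicates were separate cultures, so these tests rest on a spread that may be technical. Quantile normalization gave 6061 higher (32.7%) and 6705 lower (36.2%), so the split depends on scaling. Of the 206 tiles higher with Brca1 siRNA, 143 (69.4%) were called higher in PL2F8 and 11 (5.34%) lower. Of the 168 tiles lower with Brca1 siRNA, 95 (56.5%) were called higher in PL2F8 and 24 (14.3%) lower.

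Those shares have to be read against tiles of like signal. Of the 7314 tiles with a listed R1 peak, 66.7% were called higher in PL2F8 and 8.26% lower. Of the 168 higher tiles with such a peak, 70.2% were called higher and 3.57% lower, and of the 109 lower tiles with one, 58.7% and 14.7%. After quantile normalization 47.3% of the tiles with a peak were called higher and 21.8% lower, against 54.2% and 13.1% of the higher tiles with a peak and 43.1% and 28.4% of the lower ones. Tiles of either R1 direction were thus called higher in PL2F8 more often than lower, as tiles with a peak were in general. Over all 18545 tiles the R1 difference correlated with PL2F8 minus AB2.2 at r = 0.158 and rho = 0.164, across tiles that share probes and base composition between arrays. The Brca1 siRNA array had r = 0.922 with each PL2F8 array and 0.849 and 0.824 with the AB2.2 arrays, and the R1 control array 0.934 and 0.936 with PL2F8 and 0.882 and 0.856 with AB2.2. Both R1 arrays thus correlated better with PL2F8 than with AB2.2, and the Brca1 siRNA array had the lower r with each of these lines. The array numbers of the deposited peak lists fall in a pair of runs, one with both R1 arrays and PL2F8 replicate 1, the other with both AB2.2 arrays and PL2F8 replicate 2, and no source used here says whether a run is a batch. The R1 difference lies within a run. The PL2F8 array of either run had much the same r with each R1 array. Whether the runs bear on the PL2F8 comparison was not tested.

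**Figure D5:**
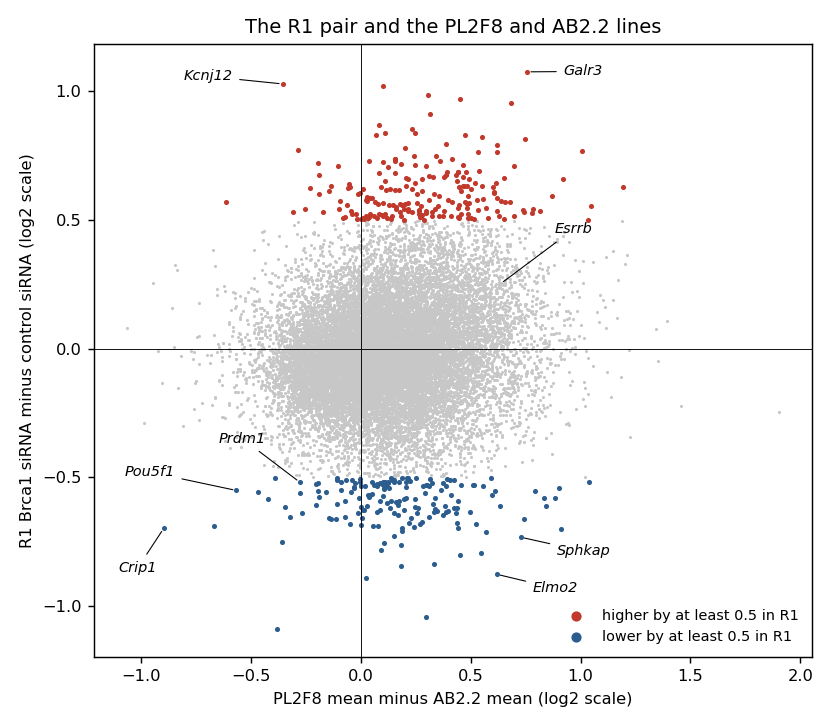
R1 Brca1 siRNA minus control siRNA (vertical axis) against PL2F8 mean minus AB2.2 mean (horizontal axis), both on the log2 scale, for 18545 tiles. Red tiles are higher and blue tiles lower by at least 0.5 in R1. The cloud has little slope (r = 0.158), red and blue tiles both lie mostly right of 0, and Crip1 and Pou5f1 lie at the lower left.

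A difference of at least 0.5 in the same direction in both systems was found at 43 of the 206 higher tiles (20.9%, against 9.25% of all tiles). Among tiles with an R1 peak these shares were closer, 23.2% of the higher tiles against 17.8%. The same was found at 3 of the 168 lower tiles (1.79%, against 0.766% of all tiles). The 3 were Crip1, Pou5f1 and Fabp3, the gene of a heart fatty acid binding protein, which was named for this count after its value was seen. At Crip1 PL2F8 had 0.071 and 0.060 and AB2.2 had 1.11 and 0.81, a fall of 0.90 ± 0.09 (SE, limma adjusted p = 0.000162). At Pou5f1 the PL2F8 difference was -0.57 (limma adjusted p = 7.7e-05). Fabp3 had 0.59 with Brca1 siRNA and 1.28 with control siRNA, with PL2F8 at -0.00053 and -0.088 and AB2.2 at 0.73 and 0.51 (limma adjusted p = 0.000233).

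Of the higher genes named above, Galr3 rose by 0.76 in PL2F8 (limma adjusted p = 8.0e-05), Upk2 by 0.68 (4.7e-05), Gm9992 by 0.75 (4.7e-05) and Olfr1410 by 0.55 (6.3e-05). Irx1 and Sox18 rose in PL2F8 by 0.56 and 0.68, with limma adjusted p = 0.00113 and 9.8e-05. In all, 10 of the 14 highest tiles were called higher in PL2F8, 1 lower and 3 not called, against 9, 3 and 2 of the 14 lowest. Of all 7314 tiles with an R1 peak, 66.7% were called higher in PL2F8 and 8.26% lower, so higher calls prevailed at tiles with a peak in general. Among tiles higher in R1, 1 was lower by at least 0.5 in PL2F8. It was Mapk12, a p38 kinase gene chosen after its value was seen, which had 1.41 with Brca1 siRNA and 0.84 with control siRNA, but 1.27 and 1.21 in PL2F8 and 1.99 and 1.72 in AB2.2.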

How the data were processed

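Each of 6 two-colour promoter arrays measured Ezh2 ChIP against input. The authors deposited 1 normalized log2 ratio of ChIP over input for each of 714900 probes, per the labels' protocols, and column medians of 0.02 to 0.04. They also deposited a peak list for each array with a false discovery rate, used like a q-value, and a peak score, the log2 ratio of the 4th highest probe in it, per the file headers. Normalization method, peak caller, genome build and annotation are named by no source used here, nor is a slide or scan date, and no probe-level depth is available, so the number of arrays limits the precision.

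Arrays were centred on the probe median, and probes were averaged per tile, keeping the 18545 tiles with at least 5 probes (160 probes left out). R1 Brca1 siRNA minus control siRNA was computed with no test, and a difference of 0.5 was called. PL2F8 was compared with AB2.2 by limma 3.58.1 in R 4.3.3 (lmFit, eBayes, two-sided, Benjamini-Hochberg, threshold 0.05), tested on simulated data. The rest was done in Python 3.11.15 with pandas 2.3.3, numpy 2.4.6 and scipy 1.17.1, and matplotlib 3.10.9 drew the figures. Overlap meant at least 1 bp.

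Named are the 14 highest and 14 lowest R1 differences among named tiles with an R1 peak and at least 10 probes, and the 2 highest and 2 lowest of each of 25 gene lists. Pluripotency and Hox genes could be named whatever their values. A gene that this rule names is not reported here. The members, lists and rules were chosen with earlier results of these data known. Alternatives were other tile summaries, scalings, thresholds and filters, leaving out each replicate, and a replicate block.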

Additional observations from a re-analysis of the deposited data

Results flagged for a closer look

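At 10 of the 28 named tiles the PL2F8 and AB2.2 arrays ran against the R1 difference, with both PL2F8 arrays on the opposite side of both AB2.2 arrays. With 1 array per R1 condition the contrast between the systems was not tested. Kcnj12 was higher with Brca1 siRNA in R1 (1.03) and had -0.36 as PL2F8 minus AB2.2 (limma adjusted p = 0.000933). The other 9, of the 14 lowest, were lower in R1 and called higher in PL2F8. Of all tiles with an R1 peak, 66.7% were called higher in PL2F8, or 47.3% after quantile normalization, so such a call is common at tiles with a peak. Sphkap had 0.73 as PL2F8 minus AB2.2, Elmo2 0.62, the tile of Atpif1 and Dnajc8 0.57, Mbd1 0.55 and Fam92b 0.45, with limma adjusted p between 6.5e-05 and 0.000168. The tile of Adat3 and Scamp4 had 0.30, Dmrt2 0.19, Timm13 0.18 and Olfr632 0.15, with limma adjusted p between 0.00084 and 0.0218. At Sphkap the arrays of low signal were R1 Brca1 siRNA (0.38) and AB2.2 (0.42 and 0.33), and those of high signal were PL2F8 (1.15 and 1.05) and R1 control siRNA (1.11).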

How the results depend on the processing

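The R1 differences rest on 1 array per condition, and their counts moved with the way a tile was summarised and scaled. The 206 higher and 168 lower tiles became 454 and 199 with the median of probes, 2462 and 2627 when the highest running mean of 5 probes stood for a tile, 205 and 132 after quantile normalization, 133 and 151 at the same median absolute deviation, and 314 and 105 when centred on tiles without a listed peak. At a difference of 1 they were 3 and 2, at 0.3 they were 1129 and 1179, and among tiles with a peak at a false discovery rate of 0.05 or less 109 and 69. Of the 206 higher and 168 lower tiles, 193 and 132 stayed past 0.5 after quantile normalization, 127 and 54 with the median of probes. The 14 highest and 14 lowest named tiles stayed past 0.5 under each of these summaries and scalings, except that 9 of the 14 lowest did with the median of probes and 13 of the 14 highest with the running mean. Scaled to the same median absolute deviation, list medians were -0.21 for Hox, -0.16 for homeobox, -0.16 for neural, -0.18 for mesoderm and endoderm, -0.096 for signalling and -0.14 for Sox genes. With the running mean they were 0.11 for DNA repair, -0.24 for cell cycle inhibitor, 0.12 for ribosomal protein, -0.39 for housekeeping, 0.14 for feeder marker, -0.092 for forkhead and -0.16 for collagen genes, and Msgn1 turned to -0.18. The cause was not tested. Peaks with Brca1 siRNA overlapped control peaks at 57.9% when the overlap had to cover at least 0.5 of the peak's length, against 69%. In the PL2F8 comparison quantile normalization gave 6061 higher and 6705 lower tiles, leaving out 1 array gave 6484 to 9559 higher and 2200 to 3997 lower, and the replicate block gave 9471 and 4111. Without PL2F8 replicate 1 the lower tiles numbered 2200 and without PL2F8 replicate 2 they numbered 2493, against 3757. The titles number the duplicates without saying that a number marks a shared batch, and same-numbered arrays deviated together at r = 0.230, which with 2 pairs does not settle whether they share one.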
